A study of Homo sapiens with 36 samples.

Results

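EHEB is an established B lymphoblastoid line from chronic lymphocytic leukaemia (CLL). The comparison described here set EHEB cells given idelalisib at 10 µM against EHEB cells given the solvent DMSO, both for 96 h. Its members were all libraries so labelled, 3 with idelalisib (EHEB_286, EHEB_287 and EHEB_288) and 3 with DMSO (EHEB_133, EHEB_134 and EHEB_135), which makes 6 of the 36 libraries of the series. The series holds total RNA depleted of ribosomal RNA from 3 B-cell lines (EHEB, JVM2 and MEC1), each given DMSO, fludarabine, ibrutinib or idelalisib in triplicate. Besides the 6 libraries, the comparisons below used EHEB given ibrutinib at 5 µM for 96 h (3 libraries, EHEB_280 to EHEB_282), and the idelalisib and DMSO libraries of JVM2 (72 h) and MEC1 (48 h), with 10 µM idelalisib in every line. Fits within EHEB also held 3 libraries given fludarabine at 50 µM for 96 h (EHEB_142 to EHEB_144). They entered the filter, the scaling and the estimate of spread. A single line stands behind each value, and the labels do not say whether the libraries of a group came from separate cultures, so p-values measure the spread between these libraries only. The library numbers of the kinase inhibitors form a later series than those of DMSO, with no DMSO library among them, so an effect of idelalisib and an effect of that series cannot be told apart, whereas idelalisib and ibrutinib lie within 1 series.

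Idelalisib inhibits PI3Kδ, the class I phosphoinositide 3-kinase whose catalytic subunit p110δ is found mainly in leukocytes. Downstream of the B-cell receptor, its coreceptors and chemokine receptors, PI3Kδ makes the membrane lipid PIP3, which recruits the kinases AKT and BTK. AKT in turn activates mTOR and keeps FOXO transcription factors out of the nucleus, and the pathway is known in B cells for its hold on proliferation, glucose use, homing and survival. In CLL, the drug is known to release malignant cells from lymph nodes into blood and to lower the chemokines CCL3 and CCL4.

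The 6 libraries held between 28229719 and 47140796 counts, with 42832321 to 47140796 in DMSO and 28229719 to 44698583 in idelalisib. Mitochondrial transcripts took 1.27% to 1.66% of counts with DMSO and 1.45% to 2.05% with idelalisib, and the signal recognition particle and 7SK RNAs (RN7SL1, RN7SL2 and RN7SK) took 8.13% to 9.10% and 8.34% to 9.35%. Of 13 B-cell markers 12 were expressed enough to be tested, and their summed level was 9233 to 9572 CPM (counts scaled to a common library total) with DMSO and 7351 to 8272 with idelalisib. Of the 12, 3 were lower, 2 higher and 7 not called, and the lower count was 1 without EHEB_133 or EHEB_288. MS4A1, which encodes CD20, stood at 290.4, 271 and 269.6 CPM with DMSO and 289.7, 273 and 283 with idelalisib (adjusted p = 0.723). T-cell markers summed to 64.3 to 70.5 CPM with DMSO and 40.6 to 46.6 with idelalisib, most of it CD28, and 4 of 8 tested were lower. Of the 13 listed, 3 were at 0 in all 6 libraries, CD3G and LCK among them. NK-cell markers summed to 31.4 to 34.2 and 18.4 to 24.4 CPM, with 3 lower and 1 higher of 8 tested. Of the 11 listed, 1 was at 0, GZMB. Myeloid markers summed to 85.3 to 118 and 82.5 to 88.7 CPM, mostly VCAN and ITGAM, and 1 of 6 tested was lower. Of the 14 listed, 6 were at 0, LYZ and MPO among them. Erythroid markers stayed between 0.810 and 2.78 CPM in sum, with no member called of 1 tested and 4 of 11 listed at 0, HBB among them. Epithelial and stromal markers summed to 7.59 to 8.56 CPM with DMSO and 20.8 to 24.7 with idelalisib. Of the 13 listed, 6 were at 0, EPCAM and KRT19 among them, and the 2 of 7 tested that rose were COL1A1 and PECAM1. The part of these lists in the results below was not tested. In bulk RNA, fewer cells of a kind and less RNA per cell cannot be told apart.

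With idelalisib, most tested genes of cell division, replication-dependent histones, glycolysis and cytosolic ribosomal proteins fell. Members of the lists for Notch and Wnt, NF-kB, autophagy and germinal-centre fate were among the genes that rose. Of 17748 genes tested, 2681 were higher (15.1%) and 3232 lower (18.2%) with idelalisib than with DMSO at an adjusted p under 0.05 in edgeR's quasi-likelihood test. With plain library size scaling in place of TMM (a trimmed mean that corrects for a few abundant genes), the median gene moved up by 0.10 on the log2 scale, and the split became 3579 higher and 2431 lower. Changes of 2-fold or more were called for 809 genes upward (4.56%) and 700 downward (3.94%), so most calls were of modest size. The median log2 fold change over all genes was 0.013. Long noncoding RNA genes had a median of 0.37. Of 1374 tested, 226 were higher (16.4%), close to the 15.1% over all genes. The 66 that were lower made up a smaller share than the 18.2% over all genes. Long noncoding RNA genes were also less abundant, with a median of 0.93 in mean CPM beside 12.3 over all genes.

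**Figure D1:**
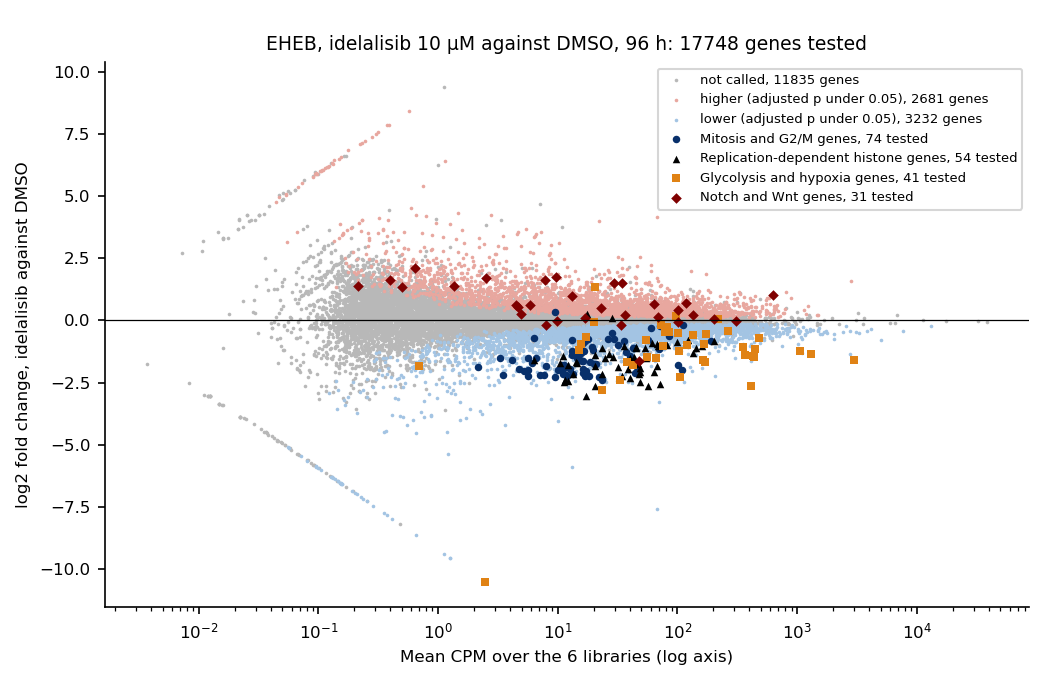
Mean CPM over the 6 EHEB libraries (log axis) against the log2 fold change of idelalisib against DMSO for all 17748 genes tested, with 2681 higher and 3232 lower genes in pale red and pale blue, genes not called in grey and 4 gene lists in dark symbols. Nearly all mitosis, histone and glycolysis genes lie below 0, and most Notch and Wnt genes above it; the straight lines at low CPM are genes with no counts in 1 group.

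The genes with the largest rises were low or near absent with DMSO. PRRX1, a homeobox transcription factor of mesenchyme (GRCh38, chr1:170662728-170739421), had 4.08, 8.65 and 8.63 CPM in the DMSO libraries and 128, 126 and 128 CPM with idelalisib (log2 fold change 4.16, SE 0.35, adjusted p = 5.25e-06). The groups were far apart, although DMSO library EHEB_133 lay below the other two. NCCRP1, an F-box-like protein, rose from 2.97, 1.89 and 2.85 to 41.4, 42.5 and 40.3 CPM, a 16.1-fold rise. WHRN, which encodes the scaffold protein whirlin of sensory hair cells, went from 0.742, 0.773 and 0.845 to 9.02, 11.3 and 10.01 CPM. The other leading rises included ARNT2, a partner of bHLH-PAS transcription factors (11.8-fold), the collagen chain COL1A1 (11.2-fold), the keratin KRT16 (10.6-fold), TMCC2 (10.3-fold), the myosin MYO18B (8.19-fold), the neuronal nitric oxide synthase NOS1 (6.71-fold), the forkhead factor FOXE1 (6.64-fold) and the ghrelin gene GHRL (6.20-fold). All of these passed the test without overlap between the groups.

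Among the largest falls were surface, chemokine, histone and glycolysis genes. FCRL5, an Fc receptor-like protein of B cells (chr1:157513377-157552515), fell from 18.9, 17.3 and 20.8 CPM to 1.27, 1.48 and 0.604 CPM (log2 fold change -4.06, SE 0.32, adjusted p = 3.12e-06). CCL4 and its near copy CCL4L2 fell 9.82-fold and 8.85-fold; reads of the pair may be split between copies. The zinc-finger gene ZNF551 fell from 22.1, 19.4 and 22.3 to 3.17, 3.08 and 3.75 CPM (adjusted p = 0.0105), and C10orf99, which encodes a secreted peptide ligand of GPR15, fell 6.04-fold. RPS10-NUDT3, a readthrough transcript that shares its exons with RPS10, was listed at 67.8, 216 and 121 CPM with DMSO and at 0.141, 1.22 and 0.572 CPM with idelalisib (adjusted p = 0.017), while RPS10 itself stood at 916, 759 and 822 CPM with DMSO and 709, 686 and 645 CPM with idelalisib. The RPS10-NUDT3 call was lost without idelalisib library EHEB_286 (adjusted p = 0.0602), EHEB_287 (0.051) or EHEB_288 (0.063), and reads shared by overlapping transcripts make its level uncertain.

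Grouped by function, the lists differed widely in how many members moved. Lists for cell division, histones, replication and glycolysis had the lowest medians of those with 15 or more members tested, and Notch and Wnt genes had the highest. Over all genes tested, 15.1% were higher and 18.2% lower, which is the background for every list count below.

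**Figure D2:**
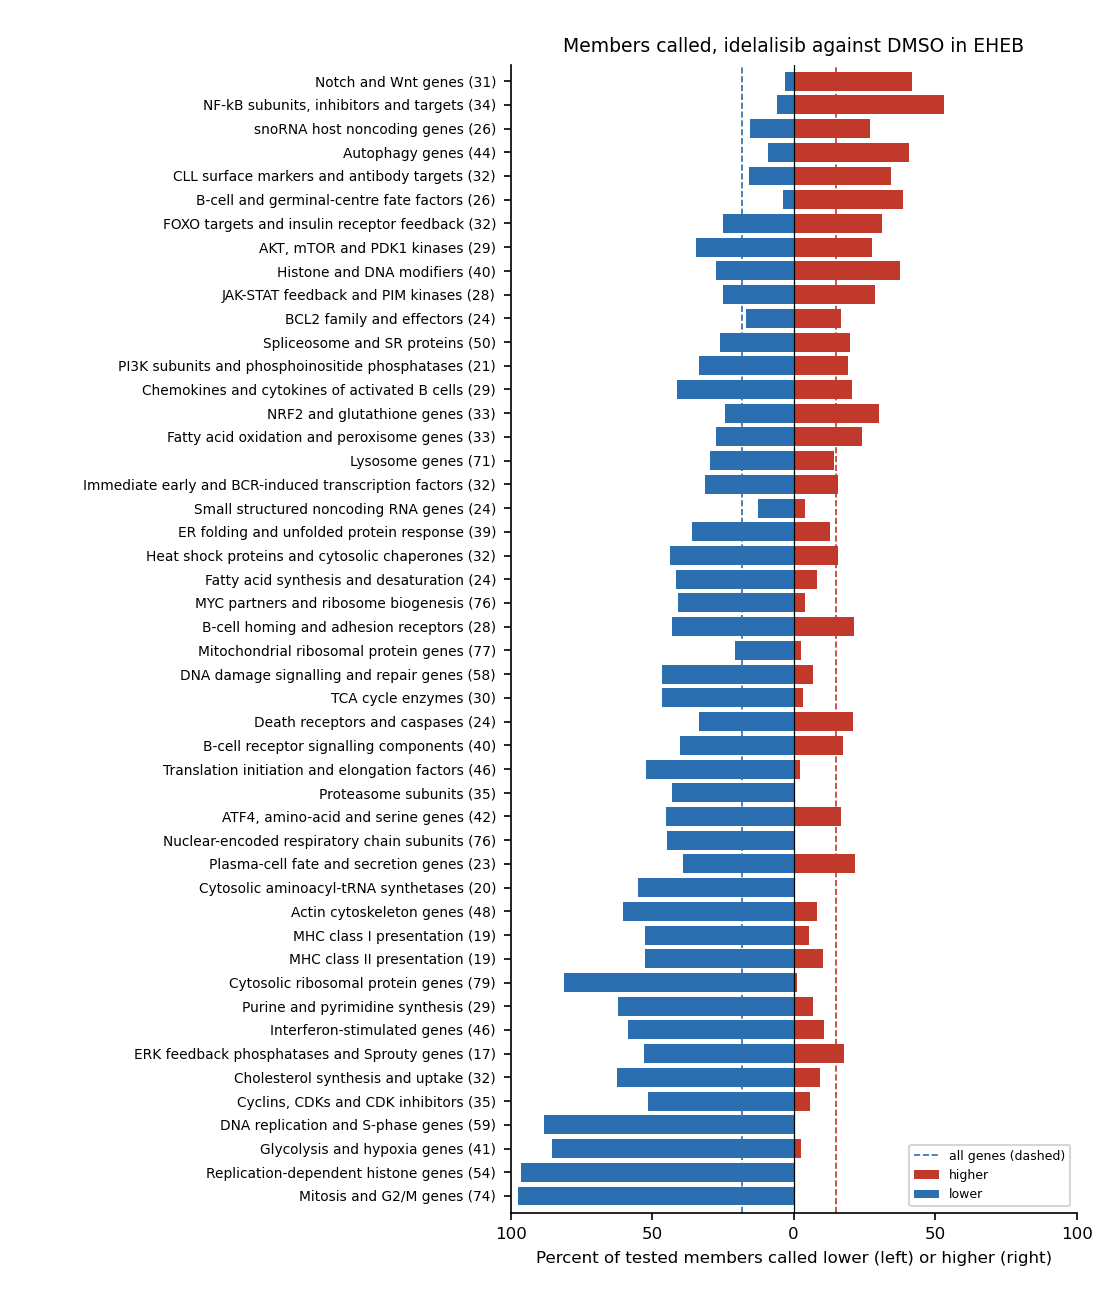
Percent of the tested members of each list (number tested in brackets) that were lower (blue, to the left) or higher (red, to the right) with idelalisib than with DMSO, for the lists described here with 15 or more members tested, ordered by median log2 fold change. Dashed lines mark the shares over all genes, 18.2% lower and 15.1% higher; 72 of 74 mitosis genes were lower at the bottom and 18 of 34 NF-kB genes higher near the top.

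Genes of mitosis and the G2/M transition, which build the spindle and separate chromosomes, fell almost without exception. Of 74 tested, 72 were lower and 0 higher, with a median log2 fold change of -1.63 beside 0.013 over all genes, and in 72 every idelalisib library lay below every DMSO library (25.2% of all genes). DLGAP5, a spindle protein that stabilises kinetochore fibres, fell from 40.0, 39.04 and 39.9 CPM to 6.69, 8.6001 and 7.05 CPM (log2 fold change -2.41, SE 0.11, adjusted p = 1.06e-07). CDK1, the kinase that drives entry into mitosis, fell from 29.5, 30.4 and 30.8 to 7.79, 5.92 and 5.75 CPM, a 4.67-fold fall. Its partner cyclins CCNA2 and CCNB1 fell 4.85-fold and 3.36-fold. The anaphase activator CDC20 went from 28.5, 27.7 and 27.6 CPM to 5.78, 5.76 and 6.04 CPM (log2 fold change -2.25, SE 0.093, adjusted p = 4.75e-08). The DNA topoisomerase TOP2A fell 3.93-fold, the spindle pole protein ASPM 4.37-fold, the mitotic kinases PLK1 and AURKB 3.90-fold and 3.60-fold, and the checkpoint kinase BUB1 only 1.55-fold. The proliferation marker MKI67 varied more, at 92.4, 177 and 205 CPM with DMSO and 54.2, 29.4 and 52.97 CPM with idelalisib (adjusted p = 0.00109), and still did not overlap.

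Among 35 cyclins, cyclin-dependent kinases and their inhibitors, 18 were lower and 2 higher (median -0.56). CCND2, the D-type cyclin that B cells induce on receptor signalling, was at 4266, 3964 and 3650.4 CPM with DMSO and 1607, 1547 and 1487 with idelalisib (log2 fold change -1.36, SE 0.073, adjusted p = 2.35e-07). CDK4, a partner of D-type cyclins, fell 1.53-fold and the G1/S cyclins CCNE1 and CCNE2 1.54-fold and 2.03-fold. CDKN1B, the inhibitor p27 and a FOXO target, rose from 61.3, 58.4 and 57.9 to 72.5, 72.5 and 69.2 CPM, a 1.21-fold rise. CDKN1A, the inhibitor p21, stood at 656, 642 and 680.2 CPM with DMSO and 158, 523 and 525 CPM with idelalisib and was not called (adjusted p = 0.262). The D-type cyclin CCND3 did not pass the test either (adjusted p = 0.741).

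DNA replication and S-phase genes fell less steeply. Of 59 tested, 52 were lower and 0 higher, with a median of -0.79. CDC6 and CDC45, which load and activate the replicative helicase, fell 4.45-fold and 4.63-fold, with CDC6 at 12.7, 16.6 and 17.2 CPM with DMSO and 3.03, 3.43 and 4.003 with idelalisib. The helicase subunits MCM2 and MCM4 fell 2.33-fold and 2.23-fold, and the sliding clamp PCNA 1.78-fold. DTL, the substrate receptor of the CUL4 ubiquitin ligase that clears the licensing factor CDT1, fell from 55.6, 53.2 and 54.2 to 11.6, 12.5 and 12.6 CPM (log2 fold change -2.15, SE 0.084, adjusted p = 4.37e-08). TYMS, which makes thymidylate, fell 2.60-fold, and RRM2, the small subunit of ribonucleotide reductase, 3.13-fold. UHRF1, which guides DNA methylation after replication, fell 3.42-fold.

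Replication-dependent histone genes, which are transcribed in S phase and make mRNAs with no poly(A) tail, fell as widely. Of the list, 52 of 54 tested were lower and 0 higher (median -1.55). HIST1H3B, a histone H3 gene, was at 129, 121 and 117 CPM with DMSO and 21.8, 20.9 and 19.9 CPM with idelalisib (log2 fold change -2.55, SE 0.088, adjusted p = 2.29e-08). HIST1H1B, a linker histone gene, fell 6.24-fold and HIST1H2BL, an H2B gene, 6.22-fold. HIST1H2AD had the largest fall of the list, 8.15-fold, from uneven DMSO values of 30.3, 44.6 and 16.4 CPM to 5.32, 3.19 and 2.76 CPM (adjusted p = 0.00162). These genes are near copies of each other, so reads may be split between them, and a library made by poly(A) selection would not measure them in this way.

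Promoters of these 3 lists were read from RefSeq (GRCh38.p14) to describe short motifs in them. A part of promoter sequence in the changes was not tested. The background was the windows of all RefSeq genes, whether tested here or not. The 250 bases before each annotated start were searched on both strands for short known motifs: the cell cycle homology region (CHR; TTTGAA or TTCGAA), the CCAAT box (CCAAT), the TATA box (TATAAA) and E2F sites (TTTCCCGC, TTTGGCGC, TTTCGCGC or TTTGCCGC); none of these words contains another. The CHR letters were in 47.9% of the 73 windows of mitosis genes (63 of 74 genes had a window), 35.4% of the 48 histone windows and 5.80% of the 69 replication windows, and in 14.3% of all 35116 windows. CCAAT was in 69.9% of mitosis windows, 87.5% of histone windows and 53.6% of replication windows, beside 32.0% of all. TATAAA was in 68.8% of histone windows, 5.48% of mitosis windows, 4.35% of replication windows and 10.7% of all. E2F letters were in 29.0% of replication windows, 25% of histone windows, 6.85% of mitosis windows and 2.79% of all. A match of letters is a description and not a site in use. The 150 bases before the start of the member with the largest fall that holds its list's motifs are given 5′ to 3′ on the gene's strand, with motif letters of either strand in capitals.
DLGAP5 (mitosis; chr14:55191586-55191735, minus strand; CHR and CCAAT): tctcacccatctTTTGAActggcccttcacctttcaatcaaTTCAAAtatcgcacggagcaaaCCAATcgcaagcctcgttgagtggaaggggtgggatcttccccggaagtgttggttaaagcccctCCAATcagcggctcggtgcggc
HIST1H2BL, now H2BC13 (histone; chr6:27807930-27808079, minus strand; CCAAT and TATA): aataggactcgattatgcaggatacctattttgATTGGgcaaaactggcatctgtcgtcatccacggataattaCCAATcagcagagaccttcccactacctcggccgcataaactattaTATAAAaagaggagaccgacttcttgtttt
DTL (replication; chr1:212035598-212035747, plus strand; E2F and CCAAT): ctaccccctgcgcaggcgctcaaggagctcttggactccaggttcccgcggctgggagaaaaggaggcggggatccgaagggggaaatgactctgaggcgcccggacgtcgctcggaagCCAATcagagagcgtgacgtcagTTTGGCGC

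Glycolysis and hypoxia genes made up the next group by size. Of 41 tested, 35 were lower and 1 higher, with a median of -1.16. LDHA, lactate dehydrogenase A (chr11:18394560-18408425), fell from 708, 714 and 719 CPM to 126, 113 and 101.2 CPM (log2 fold change -2.65, SE 0.079, adjusted p = 1.03e-08). HK2, the hexokinase that traps glucose, fell from 149.6, 179.8 and 190.1 to 35.9, 37.4 and 34.7 CPM. The falls ran along the pathway: the glucose transporter SLC2A3 fell 2.76-fold, the phosphofructokinase activator PFKFB4 6.98-fold, aldolase ALDOA 2.24-fold, GAPDH 3.05-fold, phosphoglycerate kinase PGK1 2.72-fold, enolase ENO1 2.54-fold and pyruvate kinase PKM 2.35-fold. GAPDH, often used as a reference transcript, went from 4275, 4662 and 4489 CPM to 1451, 1519 and 1433 CPM. Targets of hypoxia-inducible factor fell as well, with the mitophagy receptor BNIP3 at 2.88-fold, the oxygen sensor EGLN3 at 3.43-fold and the angiogenic factor VEGFA at 5.30-fold lower. The carbonic anhydrase CA9 was at 4.67, 4.76 and 5.42 CPM with DMSO and at 0 counts in every idelalisib library, at least 55.8-fold lower with a floor of 3 counts per library. HIF1A, the factor itself, stood at 232.7, 205 and 205 CPM with DMSO and 237, 224 and 213 CPM with idelalisib (adjusted p = 0.486), and the transporter SLC2A1 at 90.0, 92.6 and 89.8 CPM with DMSO and 119, 74.3 and 118 CPM with idelalisib (adjusted p = 0.433). P4HA2, a collagen prolyl hydroxylase, was the only member called higher (2.51-fold).

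The hypoxia core (ACGTG or GCGTG) was found in 60% of the 65 promoter windows of this list and in 43.2% of all windows. It was no more frequent here than in mitosis windows (68.5%) or replication windows (65.2%), and was in 25% of histone windows. LDHA is shown by the same rule, as the candidate with the largest fall whose 150 bases before the first listed start hold it. LDHA has 2 listed starts. CA9, at a mean under 5 CPM, was not a candidate.
LDHA (chr11:18394413-18394562, plus strand; hypoxia core in capitals): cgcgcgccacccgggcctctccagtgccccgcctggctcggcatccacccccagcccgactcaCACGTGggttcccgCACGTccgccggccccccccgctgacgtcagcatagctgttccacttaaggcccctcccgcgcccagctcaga

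Lipid synthesis fell in part. SCD, the desaturase that makes monounsaturated fatty acids, fell from 218, 212 and 204 CPM to 52.1, 53.9 and 49.0 CPM (log2 fold change -2.03, SE 0.060, adjusted p = 1.03e-08). Fatty acid synthase FASN fell 1.72-fold and the desaturase FADS1 1.43-fold, whereas ACACA, the carboxylase that opens the pathway, stood at 62.2, 61.2 and 60.4 CPM with DMSO and 61.1, 59.3 and 61.3 CPM with idelalisib (adjusted p = 0.84). Of 24 fatty acid synthesis and desaturation genes 10 were lower and 2 higher (median -0.17). Of 32 cholesterol synthesis and uptake genes 20 were lower and 3 higher (median -0.51), among them the synthase HMGCS1 (1.52-fold lower) and the epoxidase SQLE (1.27-fold lower). LSS, lanosterol synthase, rose against the rest of the list, from 59.1, 60.3 and 63.9 to 93.8, 107 and 113 CPM. SREBF1, which drives lipogenic genes, fell 1.85-fold, and SREBF2, which drives cholesterol genes, was not called (adjusted p = 0.155). Fatty acid oxidation and peroxisome genes split, with 8 higher and 9 lower of 33, and cholesterol efflux genes had 0 higher and 3 lower of 8.

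Protein synthesis genes fell by smaller amounts. In all, 64 of 79 cytosolic ribosomal protein genes were lower and 1 higher (median -0.41), and together ribosomal proteins took 5.32% to 5.37% of counts with DMSO and 4.18% to 4.41% with idelalisib. RPS6, the ribosomal protein phosphorylated downstream of mTOR, fell 1.40-fold. RPL22L1, a paralogue of RPL22, fell more than the others named here, from 41.6, 36.3 and 35.8 to 12.3, 12.7 and 11.7 CPM. Translation initiation and elongation factors had 24 lower and 1 higher of 46, cytosolic aminoacyl-tRNA synthetases 11 and 0 of 20, and purine and pyrimidine synthesis genes 18 and 2 of 29. MYC partners and ribosome biogenesis genes had 31 lower and 3 higher of 76, with a median of -0.18; with library size scaling 19 were lower and 10 higher. MYC stood at 25.6, 38.6 and 34.6 CPM with DMSO and 16.9, 25.6 and 23.6 CPM with idelalisib (log2 fold change -0.58, adjusted p = 0.0625) and passed the threshold with DESeq2 (adjusted p = 0.0328) or without DMSO library EHEB_133 (adjusted p = 0.0368). Proteasome subunits had 15 lower and 0 higher of 35. Genes of amino-acid supply under ATF4 had 19 lower and 7 higher of 42: ATF4 itself rose 1.68-fold, while its targets PSAT1, ASNS, TRIB3 and SESN2 fell 2.25-fold, 1.54-fold, 1.86-fold and 1.52-fold. Endoplasmic reticulum folding genes had 14 lower and 5 higher of 39, with the chaperone HSPA5 1.31-fold lower, and heat shock proteins 14 and 5 of 32.

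Nuclear and mitochondrial genes of respiration differed in direction. Nuclear-encoded respiratory chain subunits had 34 lower and 0 higher of 76 (median -0.28) and enzymes of the TCA cycle 14 and 1 of 30. Mitochondrial ribosomal protein genes had 16 lower and 2 higher of 77, beside 18.2% lower over all genes, and the lower count was 8 without EHEB_133, 10 without EHEB_286 and 7 with library size scaling. The lower count of TCA cycle enzymes was 9 without EHEB_133. Of the 13 protein genes of the mitochondrial genome 9 were higher and 0 lower (median 0.77). MT-ND6, the complex I gene on the light strand, had 29.3, 28.6 and 35.5 CPM with DMSO and 60.7, 42.2 and 100.7 CPM with idelalisib (adjusted p = 0.0114), with library EHEB_288 well above EHEB_287. The abundant MT-CO1, at 12753, 11195 and 9516 CPM with DMSO and 11017, 9970.4 and 13033 CPM with idelalisib, was not called (adjusted p = 0.914). Leaving out DMSO library EHEB_134 or EHEB_135 or idelalisib library EHEB_288 reduced the 9 higher genes to 4, and library EHEB_288 also had the highest mitochondrial share of the 6.

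**Figure D3:**
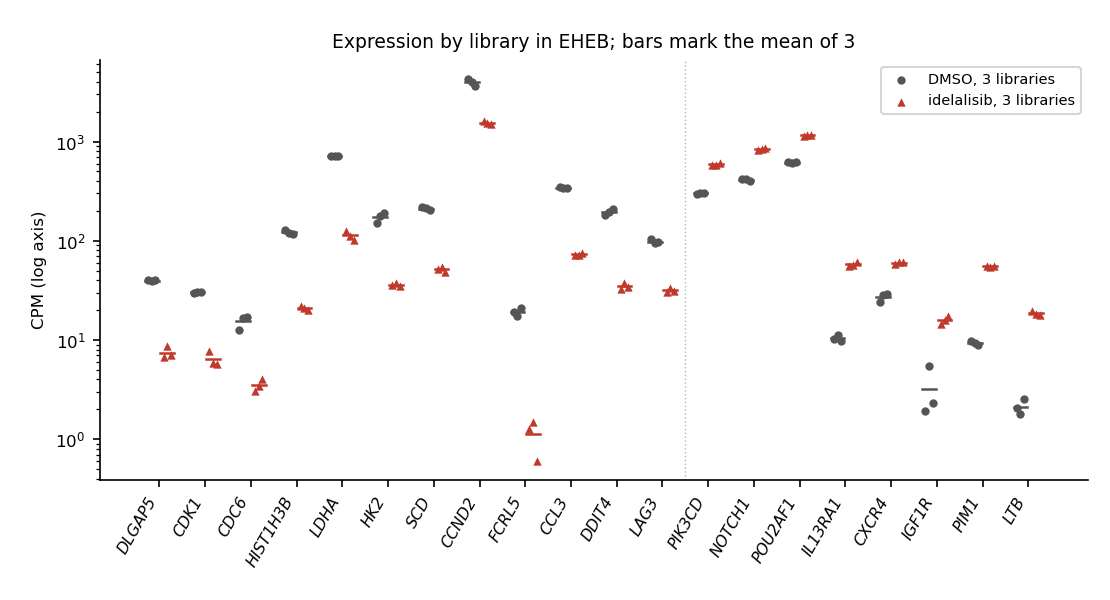
CPM (log axis) of 20 genes in each DMSO library (grey circles) and each idelalisib library (red triangles) of EHEB, with a bar at the mean of 3; the 12 genes left of the dotted line fell and the 8 to its right rose. The groups do not overlap for any of the 20, with LDHA falling from 714 to 114 CPM on average and PIM1 rising from 9.32 to 55.1.

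Genes of the drug's own pathway moved in both directions. PIK3CD, which encodes the target p110δ, rose from 296, 302 and 306 CPM to 579, 581 and 604 CPM (log2 fold change 0.96, SE 0.062, adjusted p = 8.4e-07). PIK3CA, the catalytic subunit p110α, rose 1.88-fold, and PIK3R5, the p101 regulator of p110γ, 2.16-fold, whereas PIK3CB (p110β) and PIK3CG (p110γ) were not called (adjusted p = 0.16 and 0.524). PIK3AP1, the adaptor BCAP that links the B-cell receptor to PI3K, fell 2.26-fold. In all, 4 of 21 PI3K subunit and phosphoinositide phosphatase genes were higher and 7 lower, with a median of -0.051 that turned to 0.050 with library size scaling. Among AKT and mTOR kinases and their regulators, 8 were higher and 10 lower of 29. DDIT4, which restrains mTOR under stress and low oxygen, fell from 182, 194 and 208 to 33.0, 37.7 and 34.3 CPM (log2 fold change -2.47, SE 0.092, adjusted p = 3.23e-08). RICTOR, the core of mTOR complex 2, rose 1.45-fold and RPTOR, that of complex 1, 1.15-fold, whereas AKT1 and AKT2 were not called (adjusted p = 0.867 and 0.312).

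FOXO targets and receptors of the insulin family, which PI3K signalling is known to hold down, had 10 higher and 8 lower of 32 (median 0.088), with 5 lower without EHEB_133 or EHEB_288. IGF1R, the receptor of insulin-like growth factor, rose from 1.90, 5.41 and 2.33 CPM to 14.5, 15.8 and 17.3 CPM (log2 fold change 2.30, SE 0.43, adjusted p = 0.00186). IRS2, the adaptor of that receptor, rose from 15.4, 15.2 and 16.6 to 42.6, 38.4 and 44.4 CPM, and KLF2, a quiescence and trafficking factor of lymphocytes, from 3.26, 3.53 and 2.51 to 8.49, 8.47 and 7.78 CPM. Other members went the opposite way or were not called. BNIP3, TNFSF10 and TRIB3, also on this list and among its largest called changes, fell by more than FOXO1 itself (1.77-fold) and SESN1 (1.63-fold). TXNIP stood at 35.9, 33.2 and 32.0 CPM with DMSO and 32.6, 36.98 and 31.7 CPM with idelalisib (adjusted p = 0.985).

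Genes of the B-cell receptor pathway moved both ways, with more calls downward. CD79A and CD79B, the signalling chains of the receptor, were not called (adjusted p = 0.519 and 0.418). Of 40 signalling components, 16 were lower and 7 higher (median -0.25). The kinase LYN fell 1.42-fold and the phospholipase PLCG2 1.45-fold. The kinase BLK rose from 199, 219 and 222 to 374, 397 and 377 CPM, and RASGRP3, which couples diacylglycerol to RAS, from 297, 297 and 298 to 532, 518 and 545 CPM.

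Transcription factors that follow receptor engagement were split. EGR1 fell from 21.7, 29.5 and 29.1 CPM to 5.92, 6.59 and 6.32 CPM (log2 fold change -2.09, SE 0.12, adjusted p = 2.99e-07), EGR3 3.55-fold and BHLHE40 2.63-fold. JUN rose from 26.7, 29.4 and 32.5 to 66.3, 71.99 and 73.0 CPM, while FOS and EGR2 were not called (adjusted p = 0.934 and 0.91). Of 32 such factors 10 were lower and 5 higher. Feedback genes of ERK signalling had 9 lower and 3 higher of 17 (median -0.47), with the phosphatases DUSP6 and DUSP2 and the ETS factor ETV5 at 3.02-fold, 2.37-fold and 3.06-fold lower. SPRY1, an inhibitor of RAS signalling, was at 0.767, 1.21 and 1.98 CPM with DMSO and at 0 counts in every idelalisib library, at least 14.8-fold lower.

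Chemokines and cytokines of activated B cells included some of the largest changes in both directions. CCL3 fell from 347, 341 and 339 CPM to 71.8, 72.3 and 75.9 CPM (log2 fold change -2.22, SE 0.065, adjusted p = 1.03e-08), and CCL4 from 136, 127 and 122 CPM to 14.4, 13.8 and 10.96 CPM; both attract T cells and monocytes. TNF fell 2.80-fold and lymphotoxin alpha, LTA, 2.24-fold. LTB, lymphotoxin beta, which pairs with LTA at the cell surface, rose from 2.08, 1.81 and 2.51 CPM to 19.5, 18.4 and 17.8 CPM (log2 fold change 3.12, SE 0.19, adjusted p = 5.1e-07). CXCL10, a chemokine for CXCR3, rose 2.17-fold and CCL22 1.23-fold. Over the list, 12 of 29 were lower and 6 higher. Homing and adhesion receptors likewise had 12 lower and 6 higher of 28. CXCR4, the receptor for CXCL12 that holds CLL cells in tissue, rose from 24.1, 28.3 and 29.3 to 57.8, 60.8 and 61.3 CPM (log2 fold change 1.14, SE 0.094, adjusted p = 5.21e-06). ITGB7, an integrin of gut homing, fell 2.32-fold, CXCR3 2.50-fold and ITGA4 1.38-fold. Actin cytoskeleton genes leaned downward, with 29 lower and 4 higher of 48; CORO1A, an actin regulator of leukocytes, fell from 453, 454 and 446 to 149.9, 166 and 154 CPM, RAC2 fell 1.62-fold and RHOB rose 2.02-fold.

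Genes of the NF-kB list were called mainly upward. Of 34 subunits, inhibitors and targets, 18 were higher and 2 lower, with a median of 0.30. The lowest log2 fold change on the list was -0.58. CCL3, CCL4, TNF and LTA, which fell further, were therefore not on it. The paper lists CCL3 among genes regulated by NF-kB, so the direction depends on which targets were listed. RELB and NFKB2, the subunits of the noncanonical pathway, rose 1.595-fold and 1.38-fold. The inhibitor NFKBIA rose from 246, 238.3 and 233.5 to 336, 321 and 314 CPM, and TNFAIP3, a deubiquitinase that damps the pathway, 1.23-fold. The caspase-8 regulator CFLAR rose 1.78-fold, BIRC3 1.43-fold and TRAF1 1.26-fold, while NFKB1 fell 1.22-fold. PIM1 and PIM2, survival kinases downstream of STAT factors, rose: PIM1 from 9.82, 9.26 and 8.87 CPM to 55.1, 54.5 and 55.6 CPM (log2 fold change 2.56, SE 0.14, adjusted p = 3.1e-07) and PIM2 1.98-fold. IL13RA1, a chain of the IL-4 and IL-13 receptor, rose from 10.3, 11.1 and 9.74 to 55.2, 57.6 and 61.5 CPM, and SOCS3, a feedback inhibitor of STAT3 signalling, fell 3.31-fold. That list of 28 had 8 higher and 7 lower.

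In the BCL2 family, which sets the threshold of apoptosis, 4 of 24 genes were higher and 4 lower. BCL2 rose from 532, 550.3 and 552 CPM to 756, 716 and 743 CPM (log2 fold change 0.44, SE 0.041, adjusted p = 1.19e-05). The BH3-only protein BMF, which opposes BCL2, rose 1.93-fold, and the survival protein BCL2A1 fell 1.496-fold. MCL1 and BCL2L1 were not called (adjusted p = 0.831 and 0.923). Death receptors and caspases had 8 lower and 5 higher of 24 (5 lower without EHEB_133), with the death ligand TNFSF10 2.27-fold lower. The antiproliferative gene BTG2 fell 1.62-fold. DNA damage and repair genes had 27 lower and 4 higher of 58, among them genes known to rise in S phase, such as FANCI (2.20-fold lower) and CHEK1 (2.26-fold lower).

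Most interferon-stimulated genes fell. Of 46, 27 were lower and 5 higher (median -0.45). STAT2, a transcription factor of interferon signalling, fell from 356, 353 and 346 CPM to 185.8, 236 and 209 CPM (log2 fold change -0.74, SE 0.091, adjusted p = 9.26e-05). Among others, IRF1 fell 1.42-fold, the GTPase GBP1 2.58-fold and the ubiquitin-like ISG15 1.56-fold, whereas IFIT3 and IRF7 were not called (adjusted p = 0.171 and 0.211). Antigen presentation leaned the same way. MHC class I genes had 10 lower and 1 higher of 19, with the peptide transporter TAP1 1.72-fold lower and HLA-B at 3059, 3150.1 and 3128 CPM with DMSO and 3002, 3060.3 and 3381 CPM with idelalisib (adjusted p = 0.896). MHC class II genes had 10 lower and 2 higher of 19: HLA-DRA fell 1.33-fold and HLA-DPA1 1.42-fold, while CIITA, the transactivator of class II genes, rose from 129, 114 and 121 to 184.1, 196 and 222 CPM (log2 fold change 0.73, SE 0.078, adjusted p = 3.4e-05). HLA genes are highly alike and polymorphic, so reads of a cell line may be split between them.

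More factors of B-cell and germinal-centre fate rose than fell. Of 26 fate factors 10 were higher and 1 lower. POU2AF1, the B-cell coactivator OBF1, rose from 618, 605 and 615 to 1151, 1160.4 and 1156 CPM (log2 fold change 0.92, SE 0.045, adjusted p = 1.28e-07), and MYB rose 2.84-fold. PAX5 was not called (adjusted p = 0.159), and ID3, an inhibitor of E proteins, fell 1.79-fold. Plasma-cell genes had 9 lower and 5 higher of 23, with SDC1 (CD138) 2.46-fold and CD38 1.47-fold lower and XBP1 uneven and not called, at 366, 139.9 and 362 CPM with DMSO and 153, 222 and 399 CPM with idelalisib. IGHE, the constant region of IgE, rose from 1.16, 1.98 and 1.22 to 10.3, 13.8 and 13.8 CPM (log2 fold change 3.12, SE 0.44, adjusted p = 0.000249), IGHG3 rose 1.43-fold, and IGKC fell 1.36-fold; the immunoglobulin list had 2 higher and 1 lower of 11. Surface markers and antibody targets of CLL had 11 higher and 5 lower of 32. CD200, CD27 and FCER2 (CD23) rose 1.84-fold, 1.78-fold and 1.66-fold, and CD24 rose from 1.11, 0.701 and 0.889 to 4.404, 4.65 and 5.40 CPM. LAG3, an inhibitory receptor that binds MHC class II, fell from 104, 94.1 and 96.6 to 30.7, 33.3 and 31.1 CPM (log2 fold change -1.63, SE 0.078, adjusted p = 1.08e-07).

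The Notch and Wnt list had the highest median of the lists with 15 or more members tested (0.62), with 13 higher and 1 lower of 31. NOTCH1, a gene often mutated in CLL, rose from 417, 416 and 402 CPM to 815, 850.0 and 866 CPM (log2 fold change 1.03, SE 0.049, adjusted p = 1.08e-07). HEY1, a transcriptional target of Notch, rose from 17.8, 17.8 and 17.9 to 52.4, 49.2 and 51.1 CPM, but HES1 and DTX1, other targets, were not called (adjusted p = 0.872 and 0.539). WNT10A was the member that fell, 3.14-fold. Autophagy genes had 18 higher and 4 lower of 44: the cargo receptor SQSTM1 (p62) rose from 235, 239.4 and 245 to 391, 390.2 and 400.5 CPM, TP53INP1 rose 1.98-fold and the initiating kinase ULK1 1.26-fold. Lysosome genes had 21 lower and 10 higher of 71, or 6 higher without EHEB_134. Of 40 histone and DNA modifiers 15 were higher and 11 lower, or 9 higher without EHEB_133 or EHEB_288, with the acetyltransferase CREBBP 1.52-fold higher and the methyltransferase EZH2 1.49-fold lower. NRF2 and glutathione genes had 10 higher and 8 lower of 33 (5 lower without EHEB_134 or EHEB_135), including haem oxygenase HMOX1, which rose from 5.61, 5.05 and 6.14 to 19.0, 17.9 and 21.2 CPM, and NQO1, which rose 1.9998-fold. The glucuronosyltransferase UGT2B17, the enzyme the series was built around, rose 1.26-fold (log2 fold change 0.34, SE 0.073, adjusted p = 0.00438) and 3 of 13 tested members of its list were higher and 3 lower, among the latter UGP2, which makes UDP-glucose (1.36-fold).

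Splicing genes had 13 lower and 10 higher of 50, but only 7 lower without EHEB_134 and 8 without EHEB_133 or EHEB_288. The snoRNA host genes had 7 higher and 4 lower of 26. MALAT1, an abundant nuclear RNA, rose from 1186, 1288 and 1776 CPM to 3907, 3892 and 4944 CPM (log2 fold change 1.58, SE 0.28, adjusted p = 0.00131). MIAT, another nuclear RNA, rose 6.65-fold and the antisense gene XXYLT1-AS2 4.96-fold; strandedness is not stated, so reads of an antisense gene and its partner cannot be told apart. LDHAP4, a pseudogene that resembles LDHA, fell 8.36-fold and may hold LDHA reads. LINC01694 fell to uneven values of 24.6, 2.62 and 2.89 CPM from 49.97, 54.7 and 53.8 CPM (adjusted p = 0.0163, but 0.0678 when only the 6 libraries were fitted). SNORD3D was listed at 38.1, 38.8 and 1.42 CPM with DMSO and 0.846, 0 and 0.604 CPM with idelalisib, with a call (adjusted p = 0.0377) that was lost without DMSO library EHEB_133 or EHEB_134 or any 1 idelalisib library (adjusted p from 0.0797 to 0.113). Small structured RNAs had 3 lower and 1 higher of 24, and RN7SL1 and RN7SK were not called (adjusted p = 0.792 and 0.849).

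Ibrutinib, which inhibits BTK next to PI3Kδ in the receptor pathway, allowed a comparison within 1 line, time and library series, though at 5 µM rather than 10 µM, so doses differed. Idelalisib libraries were higher than ibrutinib libraries at 1202 genes (6.77%) and lower at 1613 (9.09%). The division genes set the 2 drugs apart: 70 of 74 mitosis genes, 49 of 54 histone genes and 49 of 59 replication genes were lower with idelalisib, and none was higher. With ibrutinib, 1509 genes were higher than with DMSO (8.50%) and 1990 lower (11.2%). The median changes of the 3 lists against DMSO were -0.39, -0.56 and -0.13 with ibrutinib, beside -1.63, -1.55 and -0.79 with idelalisib; both drugs share the DMSO libraries. CDC6 had the largest fall against ibrutinib of the protein-coding genes at 5 CPM or more, from 14.9 ± 2.16 CPM (SD, n = 3) with ibrutinib to 3.49 ± 0.490 with idelalisib (log2 difference -2.09, SE 0.15, adjusted p = 1.13e-05). HIST1H2BL, DLGAP5, UHRF1 and HIST1H1B followed, with log2 differences of -1.94, -1.91, -1.90 and -1.86.

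Fewer glycolysis genes differed between the drugs. With ibrutinib, 34 of 41 members were lower than with DMSO (median -0.82), and 14 were lower and 3 higher with idelalisib than with ibrutinib. LDHA fell further with idelalisib (log2 difference -0.82, adjusted p = 4.25e-05), whereas for BNIP3 the difference was -0.018 (SE 0.11, adjusted p = 0.951). Among chemokines, the difference was -0.16 for CCL3 (SE 0.063, adjusted p = 0.111) and -0.55 for CCL4 (adjusted p = 0.0162). FOXO targets were higher with idelalisib than with ibrutinib at 11 of 32 and lower at 4. The higher ones included TXNIP (log2 difference 0.99, adjusted p = 4.79e-05), IRS2 (0.98, adjusted p = 1.93e-05) and CDKN1B (0.54, adjusted p = 3.91e-05). With ibrutinib against DMSO, 1 member of this list was higher and 10 were lower (median -0.098). TXNIP was not called for idelalisib against DMSO, so its difference is not a rise with idelalisib. CXCR4 was 1.03 higher on the log2 scale with idelalisib (adjusted p = 4.33e-05) and JUN 1.36 (adjusted p = 2.29e-06). The largest rises over ibrutinib were PRDM2 (log2 difference 2.96), TRIM29 (2.85), SYPL2 (2.01), CERKL (1.98) and APOL1 (1.92). The CERKL call was lost without any 1 ibrutinib library or without idelalisib library EHEB_286 or EHEB_288 (adjusted p from 0.0576 to 0.0759). Against DMSO, CERKL was not called (adjusted p = 0.726), nor was PRDM2 (adjusted p = 0.132, but 8.7e-05 when only the 6 libraries were fitted), and TRIM29 and PRDM2 were lower with ibrutinib than with DMSO (-1.89 and -2.11 on the log2 scale).

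**Figure D4:**
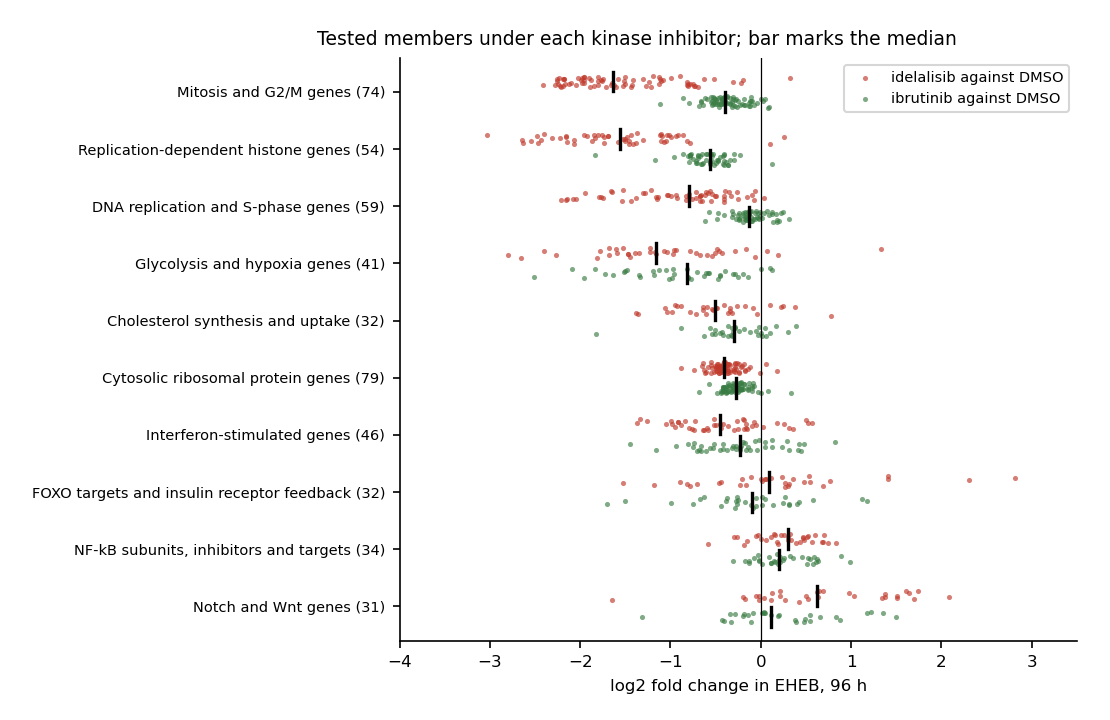
Log2 fold change of each tested member of 10 lists in EHEB after 96 h, for idelalisib 10 µM against DMSO (red) and ibrutinib 5 µM against DMSO (green), which share the DMSO libraries; a black bar marks each median. Mitosis genes centre at -1.63 with idelalisib and -0.39 with ibrutinib, whereas glycolysis genes centre at -1.16 and -0.82; CA9, at 0 counts with idelalisib, lies off the axis and is not drawn.

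The idelalisib change was then set against that in the other 2 lines by a test of the difference itself. Line and exposure time (96, 72 and 48 h) cannot be told apart in these values. Against MEC1, 3898 genes had a larger log2 change in EHEB (20.4% of 19081) and 3355 a smaller one (17.6%), a split that library size scaling turned to 4713 and 2628 with all genes shifted by 0.15. The MEC1 idelalisib libraries stood apart, with 15.9% to 17.98% of counts in RN7SL1, RN7SL2 and RN7SK (7.89% to 10.02% with DMSO). Against JVM2, 1791 were larger (9.39%) and 2280 smaller (11.9%).

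Mitosis genes fell further in JVM2 than in EHEB and less in MEC1. The median change of the list was -2.14 in JVM2 and -0.46 in MEC1, beside -1.63 in EHEB, and the difference from EHEB passed the test at 42 members as a higher value than in JVM2 (1 lower) and at 54 as a lower value than in MEC1 (4 higher). Histone genes fell in EHEB and JVM2 (median -1.42) and had a median of 0.66 in MEC1, with 49 of 54 lower in EHEB and none higher by that test. Among 41 glycolysis genes, the change was lower in EHEB at 20 and higher at 4 against MEC1, and lower at 22 and higher at 3 against JVM2. The interferon list ran in opposite directions: its median was 0.88 in MEC1 and 0.73 in JVM2 against -0.45 in EHEB, and 39 and 39 of 46 members were lower in EHEB by the test, with 1 and 0 higher. ISG15, for one, changed by -0.64 in EHEB, 1.72 in MEC1 and 1.46 in JVM2 (adjusted p of the difference = 4.66e-09 and 6.93e-08). Ribosomal protein genes, lower in EHEB and JVM2 (median -0.50), had a median of 0.60 in MEC1, and 71 of 79 were lower in EHEB by the test and 1 higher. Genes of amino-acid supply under ATF4 fell further in MEC1 (median -1.38), with the change higher in EHEB at 28 of 42 and lower at 4. For single genes, PIM1 rose in EHEB (2.56) and changed by -0.68 in MEC1 and -0.23 in JVM2 (adjusted p of the difference = 5e-13 and 1.14e-11), PIK3CD changed by 0.96, 0.0018 and 0.25 (2.89e-07 and 4.81e-05), and NOTCH1 by 1.03, 0.025 and -0.23 (8.52e-08 and 8.35e-08). PIM1, PIK3CD and NOTCH1 were picked with their rise in EHEB known, which favours a larger change there. Their p-values are not independent of that choice.

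**Figure D5:**
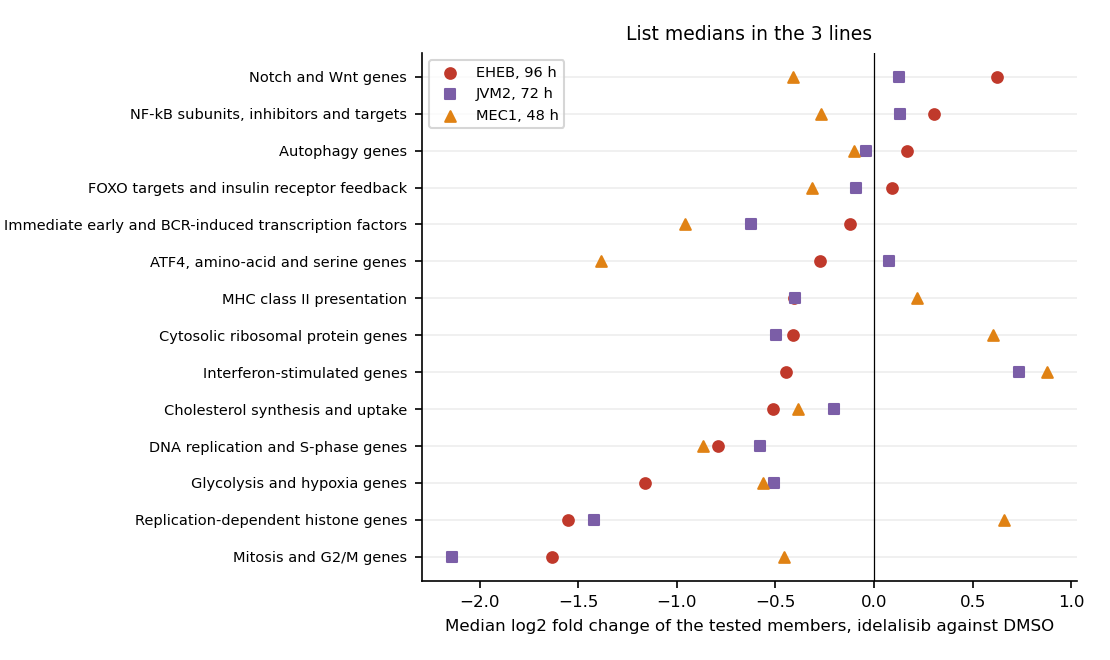
Median log2 fold change, idelalisib 10 µM against DMSO, of the tested members of 14 lists in EHEB (96 h, red circles), JVM2 (72 h, purple squares) and MEC1 (48 h, orange triangles). The interferon median is -0.45 in EHEB but 0.73 in JVM2 and 0.88 in MEC1, and the mitosis median is lowest in JVM2 at -2.14.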

How the data were processed

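Total RNA of EHEB, JVM2 and MEC1 cells was depleted of ribosomal RNA and sequenced. Per the labels and the study's methods, the authors trimmed reads with Trimmomatic, aligned them to GRCh38 with HISAT2 2.1 and derived read counts per gene with StringTie 1.3.4; neither the annotation release nor the strand is given. These estimated counts were deposited by the authors as whole numbers, in 1 table for the series. Low values pile up at about 2.67 per read, so counts overstate the reads behind them and the spread between libraries, not counting error, set the precision. A row with no gene symbol (0.00384% of counts) was left out.

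Here, edgeR 4.0.16 (R 4.3.3) was run on the 12 EHEB libraries with TMM scaling, filterByExpr (minimum count 10, minimum total 15) and the quasi-likelihood F-test, 2-sided, and p-values were adjusted by Benjamini-Hochberg over all genes tested at a threshold of 0.05. "Higher", "lower", "rose" and "fell" refer to that threshold. SE is the size of the log2 fold change divided by the square root of the test's F statistic. It is approximate, most of all for genes near 0 in 1 group. Differences between lines were tested as interactions over 18 libraries. CPM were computed here from counts with TMM-scaled totals. Gene positions are from GENCODE 44 (GRCh38) and promoters from RefSeq; 99.6% of symbols matched. Replicates differed by more than sampling noise. On data simulated for idelalisib against DMSO (17272 genes, 200 of them changed), edgeR recovered 34 of 100 genes changed by 0.75 on the log2 scale. It recovered 74 of 100 changed by 1.5, with 6 false calls. The share of genes changed there was far smaller than the share called in the data.

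The genes named were the 12 largest rises and falls among called protein-coding genes at a mean of 5 CPM or more without overlap, the largest noncoding changes, the 5 largest differences from ibrutinib in each direction, and, from each of 59 lists, genes of a core set by role, up to 6 called members with the largest changes and up to 2 abundant members that were not called. Not all genes that met the rule are printed. Other genes, such as GAPDH, CA9, MKI67, SPRY1 and MALAT1, were chosen after their values were seen. The members and lists were chosen with earlier results of these data known. Alternatives were library size scaling, size-factor (RLE) scaling, DESeq2 1.42.0, voom from limma 3.58.1, no filter, a mean of 5 CPM, only the libraries compared, all 36 libraries, and each library left out; counts divided by 2.67 were added after seeing the data. Some genes are not reported here.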

Additional observations from a re-analysis of the deposited data

Results flagged for a closer look

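For the 5 largest rises and the 5 largest falls among the named protein-coding genes, the change with idelalisib in EHEB was compared with that in each other line by the interaction test over 18 libraries. These genes were chosen by their change in EHEB, which favours a larger change there, so the p-values below describe the difference and are not independent of that choice. Of the 10 genes compared, 7 passed against each line, and only those are described below. RPS10-NUDT3 passed against neither line (adjusted p of the interaction test = 0.106 against MEC1 and 0.078 against JVM2). Line and exposure time (96 h, 72 h for JVM2, 48 h for MEC1) cannot be told apart, and the MEC1 idelalisib libraries held 15.9% to 17.98% of counts in RN7SL1, RN7SL2 and RN7SK, whose part was not tested.

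Against MEC1, the scaffold gene WHRN rose by 3.49 more on the log2 scale in EHEB (adjusted p = 2.36e-08), the collagen gene COL1A1 by 2.88 more (adjusted p = 1.77e-05) and ARNT2 by 6.65 more (SE 1.67, adjusted p = 0.00822), the last with next to no counts in MEC1. Without MEC1 DMSO library MEC1_37 the ARNT2 difference was 3.55 (adjusted p = 1), and with counts divided by 2.67 it was 5.38 (adjusted p = 0.0557). FCRL5, an Fc receptor-like protein, differed by -3.87 (adjusted p = 1.29e-06), and the chemokine genes CCL4 and CCL4L2 by -3.16 (adjusted p = 7.51e-10) and -3.47 (adjusted p = 1.01e-06). The histone gene HIST1H2AD differed by -3.98 (adjusted p = 1.26e-05), with a log2 change of -3.03 in EHEB and 1.00 in MEC1.

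Against JVM2, the differences had the same signs for the genes that passed against both lines. They were 3.12 for WHRN (adjusted p = 1.29e-06), 1.303 for COL1A1 (adjusted p = 0.0191, but 0.0504 without EHEB_133), -2.68 for FCRL5 (adjusted p = 0.000108), -2.84 for CCL4 (adjusted p = 1.5e-08) and -2.18 for CCL4L2 (adjusted p = 0.000268). The homeobox gene PRRX1 rose by 2.71 more in EHEB (adjusted p = 1.72e-05) and NCCRP1 by 1.52 more (adjusted p = 0.00523). Their log2 changes in JVM2 were 1.43 and 2.48, against 4.16 and 4.01 in EHEB.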

How the results depend on the processing

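Over the alternatives, every count over all genes but 1 stayed within 1.5 times its value; the exception was the genes lower with idelalisib than with ibrutinib, 1613 with 12 libraries and 1073 when only the 6 libraries compared were fitted, which estimates the spread from fewer samples. Of the list counts recomputed under the alternatives, 97 moved by more than 1.5 times and 1673 did not. Most of those that moved were counts of 5 or fewer, such as the 5 higher immediate early factors (3 without EHEB_286), the 3 higher ERK feedback genes (1 without EHEB_133, EHEB_135, EHEB_286 or EHEB_287), the 5 higher heat shock proteins (3 without EHEB_287) and the 3 lower small structured RNAs (0 to 7 with 1 library left out). Of the values of single genes, 35 lost their call, 17 gained one and none that was called changed sign. Genes higher with idelalisib than with DMSO ranged from 2117 to 3579 and genes lower from 2431 to 3399, while leaving out 1 library at a time gave 2117 to 2479 and 2571 to 2788. Library size scaling moved the share of calls that were higher from 45.3% to 59.6% against DMSO and, for the difference from MEC1, from 53.7% to 64.2%; it turned the excess of lower genes against DMSO (2681 higher, 3232 lower) into an excess of higher ones (3579 and 2431). At a mean of 5 CPM or more, the difference from MEC1 had 3105 genes higher in EHEB and 3282 lower, beside 3898 and 3355. List medians near 0 turned sign with library size scaling: -0.051 to 0.050 for PI3K subunits and phosphoinositide phosphatases, -0.027 to 0.074 for the BCL2 family, -0.095 to 0.0058 for NRF2 genes and -0.039 to 0.061 for splicing genes. No paired analysis was possible because the groups compared share no replicate numbers (EHEB_133 to EHEB_135 with DMSO, EHEB_286 to EHEB_288 with idelalisib). In simulated data at this number of libraries, edgeR recovered 34 of 100 genes changed by 0.75 on the log2 scale. Only 200 of 17272 genes were changed there, whereas 15.1% of genes were called higher and 18.2% lower in the data. The recovery rate in the data was not tested.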
